A study of Saccharomyces cerevisiae with 3 samples.

Results

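The yeast gene YAP1, its bZIP relatives CAD1, YAP3, CIN5, YAP5, YAP6 and YAP7, the response regulator gene SKN7 and the gene of the Yap1-binding protein, YBP1, were followed in a YAP1 mutant under arsenite. The 9 genes were chosen by name through the platform annotation, not by their values, and all 9 were on the arrays, with 18 of 13056 spots and among 5539 named genes. ARR1, the remaining YAP family gene, is given only among the related genes. Saccharomyces cerevisiae cells of a YAP1 mutant and of the wild type had both been kept in 1.0 mM As(III), that is arsenite, for 1 h, and total RNA of each pair was hybridised together on a two-colour array, 3 arrays in all. The series title speaks of a yap1 deletion. Arsenite was present in both strains and no unstressed cells were compared, so the ratios show the effect of the mutation under arsenite and not the response to arsenite. The labels used here name neither the strain background nor the deleted segment, and do not tell whether the 3 replicates came from separate cultures. P-values therefore cover the spread among 3 arrays, and this spread may be technical alone. The test used also drew the spread of each gene toward a spread shared by all genes. The mutant sample was always in the Cy5 channel, so a difference between dyes and a difference between strains cannot be told apart.

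Yap1 is a transcription factor of the basic leucine zipper class. In unstressed yeast it is carried out of the nucleus by the exportin Crm1. When peroxide oxidises its cysteines, through the peroxidase Hyr1 (also called Gpx3) and with the help of Ybp1, or when thiol-reactive agents bind them, it stays in the nucleus and activates genes of thioredoxin, glutathione and detoxification. Skn7 binds many of the same thioredoxin and peroxidase promoters. The other YAP proteins share the DNA-binding region of Yap1 and are known for responses to cadmium, salt, iron, nitric oxide and, for Arr1, arsenic.

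Each value is the log2 of mutant over wild type, so that 0 stands for equal signal and a negative value for less signal in the mutant. The deposited ratios were not centred: array medians were -0.52, -0.85 and -0.55 for replicates 1, 2 and 3. They also fell with brightness, with medians of -1.10, -1.19 and -1.32 in the brightest 10% of spots against -0.09, -0.67 and -0.32 in the dimmest 10%. A loess curve of ratio on signal was therefore subtracted within each array, and ratios below are after this step unless they are called deposited. The table does not state which strain is the numerator. Mutant over wild type is taken as likely from the wording of the titles, the dye labels and the negative YAP1 ratios, and all directions rest on that choice. Since YAP1 itself helped to set the direction, the sign of its ratio is not a separate result. The scatter was largest on replicate 1, where the median absolute ratio over all genes was 0.35, against 0.13 and 0.17 on replicates 2 and 3.

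YAP1 was the one gene of the 9 that passed the test, at 0.548 of the wild-type signal after loess, or 1.82 times it if the deposited ratio ran the other way. The mean ratios of the other 8 stayed within 0.49 of equal signal on the log2 scale, and none of them passed. By limma's moderated test with Benjamini-Hochberg adjustment over all 5539 genes at a threshold of 0.05, 1 of 9 was lower and 0 of 9 were higher. Over all genes 135 were lower and 25 were higher, or 2.44% and 0.451%. At an unadjusted p under 0.05, 2 of the 9 were lower, YAP1 and YAP7, and 0 were higher, against 643 lower and 381 higher over all genes (11.6% and 6.88%). The median of the 9 was -0.13 and that of the 8 without YAP1 was -0.12, beside -0.01 over all genes. Ratios were below 0 on all 3 arrays for 3 of the 9 (YAP1, YAP7 and YBP1) and above 0 on all 3 for 0 of the 9, where 24.2% and 20.1% of all genes were so. Centring each array on its median in place of loess leaves the fall of the ratio with brightness in place. It called 17.8% of all genes lower and 4.28% higher, and calls with median centring below are read against these shares. Under this setting limma gave every gene examined the same SE, 0.167. A gene's own spread across arrays therefore did not enter the p-values with median centring.

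**Figure D1:**
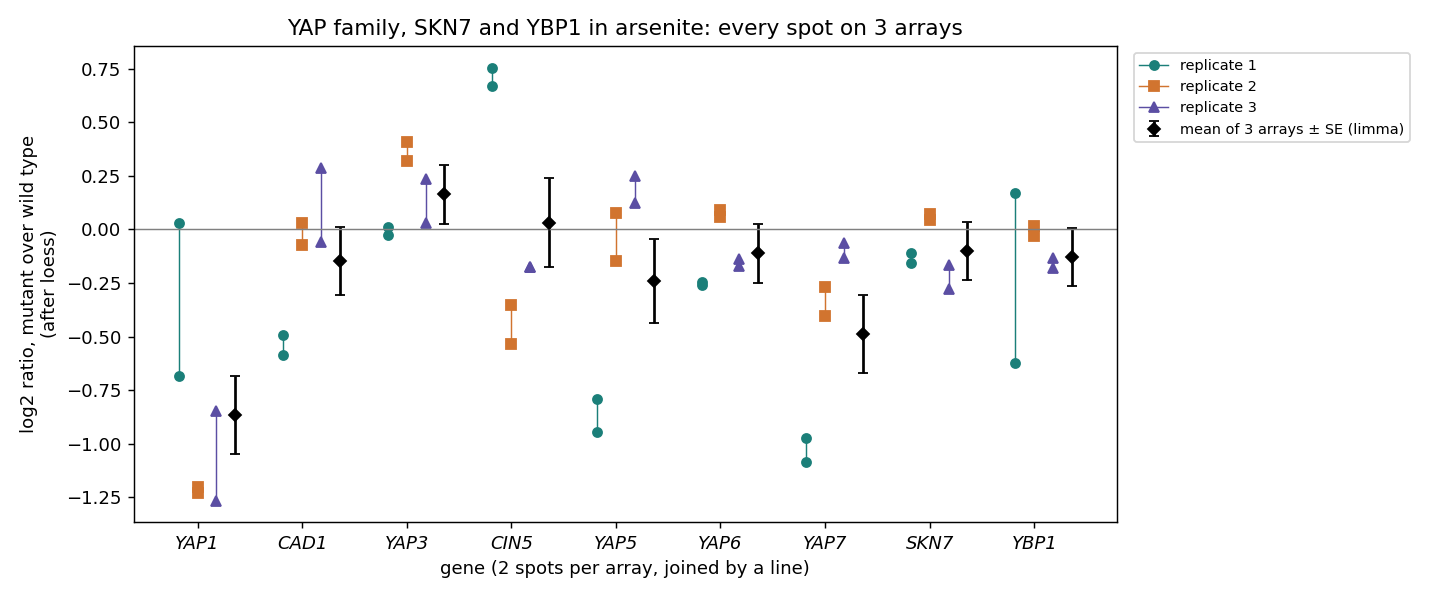
Log2 ratios of mutant over wild type after loess for the 9 genes (vertical axis), with both spots of a gene joined by a line on each of 3 arrays and the mean ± SE of limma's fit as a black diamond. YAP1 has the lowest mean, -0.87. YAP1, CAD1, CIN5, YAP5 and YAP7 are spread widely, with replicate 1 apart from replicates 2 and 3.

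YAP1 (YML007W, chromosome XIII) had ratios of -0.33, -1.22 and -1.06 on replicates 1, 2 and 3. All 3 arrays lay below 0, with replicate 1 nearer to 0 than the others. The range of 0.89 across arrays exceeded that of 89.1% of all genes. The mean was -0.87 ± 0.18 (SE, n = 3, 95% confidence interval -1.28 to -0.46, limma, adjusted p = 0.0385). This SE and interval are moderated, that is drawn toward the spread of all genes. With limma's fit left unmoderated the SE was 0.27, and YAP1 did not pass (adjusted p = 0.551). The call was lost without replicate 2 (mean -0.69, adjusted p = 0.0802), where the SE of 0.241 was shared across genes. It was also lost when only the first of the 2 spots was used (-0.67, adjusted p = 0.169), but not when only the second was (-1.06, adjusted p = 0.0109). YAP1 passed as lower at -1.30 with median centring, and at -1.29 with normexp background correction (limma, adjusted p = 0.0447). The size of its ratio thus depends on the processing.

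The 2 YAP1 spots did not read alike. On replicate 1 they had ratios of 0.03 and -0.68, a gap of 0.71 that was wider than in 99.4% of the 5510 genes with 2 spots. On replicate 3 they had -0.85 and -1.27, a gap wider than in 98.6% of those genes. On replicate 2 they nearly coincided at -1.20 and -1.23. The median gap over all genes was 0.08 on replicate 1, 0.06 on replicate 2 and 0.08 on replicate 3.

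Both channel signals could be recovered from the deposited ratios, because each is a ratio of whole numbers. They have no unit and include any background, whose handling is not given in the sources used here, and they depend on the probe, so they are compared with the array's own distribution and not read as transcript levels. Wild-type signals of YAP1 were 3747, 5551 and 3964 on replicates 1, 2 and 3, at percentiles 90.7, 94.9 and 94.4 of all genes in that channel. Mutant signals were 1562, 1099 and 844, at percentiles 87.4, 69.3 and 72.7. The mutant signal of YAP1 was thus above the median gene of the mutant channel on every array, where that median was 607, 916 and 712. Its 5th percentile was 332, 619 and 512. These signals are before loess, and the deposited ratios of YAP1 were -1.26, -2.34 and -2.23 on replicates 1, 2 and 3. The part of the gene that the spots cover was not used here, so a signal in the mutant does not show whether an intact transcript was made.

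**Figure D2:**
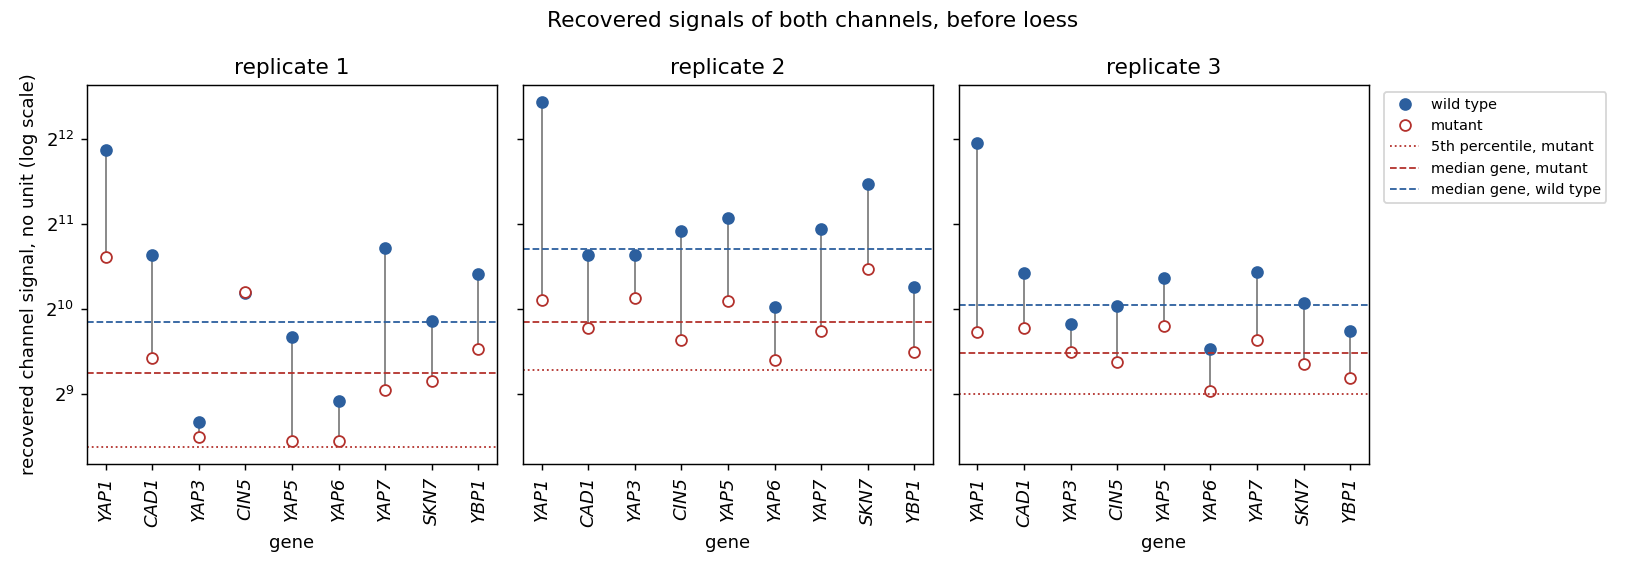
Recovered signals before loess (no unit, log scale) of the wild-type channel (filled) and the mutant channel (open) for the 9 genes, 1 panel per array, with lines at the median gene of each channel and at the 5th percentile of the mutant channel. The wild-type signal of YAP1, 3747 to 5551, lies above the wild-type median on each array, and its mutant signal stays above the mutant median.

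CAD1 (YDR423C, chromosome IV), also called YAP2, encodes the closest relative of Yap1 and gives cadmium resistance when overexpressed. Its ratios were -0.54, -0.02 and 0.12 on replicates 1, 2 and 3. Replicate 1 was low and the other arrays lay on both sides of 0. The mean of -0.15 ± 0.16 had an interval from -0.51 to 0.21 (limma, adjusted p = 0.651), and it turned to 0.05 without replicate 1. Halving or doubling of the CAD1 array signal lay outside this moderated interval, as did smaller shifts beyond its ends. The SE of CAD1 without moderation was 0.20, which gives a wider interval. These limits therefore rest on the moderated fit and on loess.

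YAP7 (YOL028C, chromosome XV), whose product represses the flavohaemoglobin gene YHB1, had the lowest mean after YAP1. Ratios were -1.03, -0.34 and -0.10 on replicates 1, 2 and 3, all below 0 but far apart. The mean was -0.49 ± 0.18 (interval -0.90 to -0.08), with an unadjusted p of 0.0248 and an adjusted p = 0.201 by limma. With arrays centred on their medians in place of loess it passed as lower (-0.59, adjusted p = 0.0039), and without replicate 1 its mean was -0.22 (adjusted p = 0.350). YHB1 had -0.23, 0.25 and 0.13, a mean of 0.05 (adjusted p = 0.880), but its sign turned with median centring and it passed as lower (-0.52, adjusted p = 0.0118).

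YAP5 (YIR018W, chromosome IX), the factor of the response to excess iron, had ratios of -0.87, -0.04 and 0.18 on replicates 1, 2 and 3. As for CAD1, replicate 1 alone was well below 0. The mean was -0.24 ± 0.20 (interval -0.68 to 0.20, limma, adjusted p = 0.542), and without replicate 1 it became 0.07. The mutant signal of YAP5 on replicate 1 was 348, at percentile 7.89 of that channel, against percentiles 68.6 and 77.8 on replicates 2 and 3. The recovery gave its 2 spots on replicate 1 probabilities of 0.83 and 0.85, so this low signal is not certain. The genes known as Yap5 targets, the vacuolar iron importer gene CCC1 (-0.26), TYW1 (0.09) and the glutaredoxin gene GRX4 (-0.01), did not pass.

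CIN5 (YOR028C, chromosome XV), also called YAP4, and YAP6 (YDR259C, chromosome IV) encode a pair of close relatives linked to salt tolerance. CIN5 had ratios of 0.71, -0.44 and -0.17 on replicates 1, 2 and 3. Its sign on replicate 1 was opposite to that on the others, and its range of 1.15 across arrays exceeded that of 96.4% of all genes. The resulting mean of 0.03 ± 0.21 had an interval of -0.43 to 0.50 and gives no direction (limma, adjusted p = 0.951).

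YAP6 was tight by comparison, with -0.25, 0.08 and -0.15. Arrays lay on both sides of 0, and the mean was -0.11 ± 0.14 (interval -0.42 to 0.20, adjusted p = 0.704). Its recovered signal was low in both channels, at percentiles 7.35, 11.6 and 6.16 in the mutant and 15.0, 6.75 and 10.5 in the wild type. With normexp background correction the mean of YAP6 was -0.29 (limma, adjusted p = 0.566). Whether background limits the ratios of so dim a gene was not tested further. Of genes known to depend on Cin5, the reductase gene GCY1 (-0.23), the glycerol phosphatase gene GPP2 (0.19) and DCS2 (0.05) did not pass. With median centring GCY1 passed as lower (-0.55) and the sign of DCS2 turned (-0.34, adjusted p = 0.127).

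YAP3 (YHL009C, chromosome VIII), a family member with few known targets, had the highest mean of the 9. Its ratios were -0.01, 0.36 and 0.13 on replicates 1, 2 and 3, with no array clearly below 0. The mean was 0.16 ± 0.14 (interval -0.15 to 0.48, limma, adjusted p = 0.559). On replicate 1 its signals of 358 in the mutant and 405 in the wild type were at percentiles 9.75 and 7.26, but the recovery gave its spots there probabilities of only 0.77 and 0.66.

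SKN7 (YHR206W, chromosome VIII) encodes the response regulator that joins Yap1 at thioredoxin promoters and also receives phosphate from the osmosensor Sln1 through Ypd1. Its ratios were -0.13, 0.06 and -0.22 on replicates 1, 2 and 3, within 0.28 of each other. The mean of -0.10 ± 0.14 (interval -0.40 to 0.21, limma, adjusted p = 0.734) leaves a halved array signal outside the interval.

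YBP1 (YBR216C, chromosome II), needed for oxidation of Yap1 by peroxide, had ratios of -0.23, -0.01 and -0.16 and the narrowest range across arrays of the 9, 0.22. All 3 arrays lay below 0, though replicate 2 was almost at it. The recovery gave the YBP1 spots on replicate 2 probabilities of only 0.018 and 0.52. Its signal there, its ratio after loess and the narrow range are therefore not certain. The mean was -0.13 ± 0.13 (interval -0.43 to 0.17, adjusted p = 0.635). The array value of replicate 1 hides a split between its spots, which had -0.62 and 0.17, a gap wider than in 99.7% of genes. With the second spot of each gene alone, the mean of YBP1 was 0.00.

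Taken by array, the 8 genes other than YAP1 spanned -1.03 (YAP7) to 0.71 (CIN5) on replicate 1, -0.44 (CIN5) to 0.36 (YAP3) on replicate 2 and -0.22 (SKN7) to 0.18 (YAP5) on replicate 3. Their median absolute ratio of 0.40, 0.07 and 0.15 on the 3 arrays is set beside 0.35, 0.13 and 0.17 over all genes. The order of the means was YAP1, YAP7, YAP5, CAD1, YBP1, YAP6, SKN7, CIN5 and YAP3 from lowest to highest. The widest step was that from YAP1 to YAP7, and from YAP5 to YAP3 the 95% intervals all overlapped and all held 0. The interval of YAP1 overlapped those of YAP7, YAP5 and CAD1.

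The genes that control Yap1 itself were examined as a list of 14, all measured. In it 4 fell and 0 rose, and the list's median was -0.12. TRX2 (-2.32) and TRR1 (-2.29), which encode a thioredoxin and its reductase, and the peroxiredoxin gene TSA1 (-1.29) fell. Their products reduce oxidised Yap1 or relay oxidation to it, and are also its known targets. YRB1, a Ran-binding protein gene of nuclear transport, fell by 0.67 (limma, adjusted p = 0.0302), but not without replicate 2 or replicate 3 or with normexp background correction. The peroxide sensor gene HYR1 had -0.06, -0.15 and -0.09 on replicates 1, 2 and 3. Its mean of -0.10 did not pass (adjusted p = 0.723). The exportin gene CRM1 (-0.23), the importin gene PSE1 (0.07) and YBP2 (0.20), the relative of YBP1, did not pass either. With median centring 8 of the 14 were lower, the 4 above with AHP1 (-0.73), SRM1 (-0.51), CRM1 (-0.48) and HYR1 (-0.46).

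Around SKN7, 1 of 8 phosphorelay and Hog1 pathway genes fell and 0 rose, with a list median of -0.12. It was SSK2, a kinase gene of the Hog1 cascade, at -0.63 (limma, adjusted p = 0.0443). That call was lost when any 1 array was left out and with either spot alone, and it held in 6 of 13 alternatives. SSK22 (-0.24), SLN1 (-0.24) and the mannosyltransferase gene OCH1 (-0.12), known to respond to Skn7, did not pass. Of the 4 genes of factors with a heat shock factor type domain like that of Skn7, 0 passed, also at an unadjusted p under 0.05 (limma): SFL1 had 0.21, MGA1 0.18, HMS2 0.05 and HSF1 0.03.

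Of 9 genes known to need both Yap1 and Skn7, 6 fell and 0 rose, with a median of -1.29. Among the 6 were TRX2, TRR1 and TSA1, already counted in the list of genes that control Yap1. AHP1 is also in both lists, so the 2 counts are not separate observations. The superoxide dismutase gene SOD1 had -2.52, -2.41 and -2.07 on replicates 1, 2 and 3. Its 3 arrays lay close together, and its mean was -2.33 (limma, adjusted p = 2.46e-05). GPX2 (-1.43), a glutathione peroxidase gene, and SOD2 (-1.29), the gene of the mitochondrial dismutase, fell as well. The cytochrome c peroxidase gene CCP1 (-0.41), the catalase gene CTT1 (0.00) and the peroxiredoxin gene AHP1 (-0.09) missed the threshold. All 9 of this list passed as lower with median centring, where 17.8% of all genes did, and CTT1 had -0.58 there. These were bright genes, with a median log2 signal of 12.1 against 9.86 over all genes.

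Of 5 genes known to need Yap1 without Skn7, 2 fell and 0 rose: the glutathione reductase gene GLR1 (-1.998) and the glutathione synthesis gene GSH1 (-1.19). CYS3 (-0.36), ZWF1 (-0.16) and TAL1 (0.31), genes of cysteine synthesis and the pentose phosphate pathway, did not pass. The list's median was -0.36, and with median centring 4 of the 5 were lower, with CYS3 at -0.91 and ZWF1 at -0.73. The sign of TAL1 turned there (-0.15, limma, adjusted p = 0.531). The list's median log2 signal was 11.4. The target lists were chosen as known Yap1 targets with earlier results of these data in view, so their direction is not independent evidence.

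Among 12 genes linked to the other family members and to Arr1, 1 fell and 0 rose, with a median of -0.12. It was FRM2, a nitroreductase-like gene linked to Cad1, with -2.56, -1.10 and -0.89 on replicates 1, 2 and 3. Every array was at -0.89 or lower, while CAD1 itself had a mean of -0.15. The mean of FRM2 was -1.52 (limma, adjusted p = 0.0199). ROX1, a repressor gene of anaerobic genes, had -0.998, -0.13 and -0.82 (mean -0.65, adjusted p = 0.106). ARR1 had 0.10 and did not pass, and neither did ARR2 (-0.46) or the arsenite exporter gene ARR3 (-0.78). The arrays differed in sign: ARR2 had 0.11, -0.46 and -1.04 and ARR3 had -1.40, 0.02 and -0.97 on replicates 1, 2 and 3. With median centring 6 of the 12 were lower: FRM2, ARR3 (-0.82), ROX1 (-0.65), GCY1, YHB1 and ARR2 (-0.47).

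**Figure D3:**
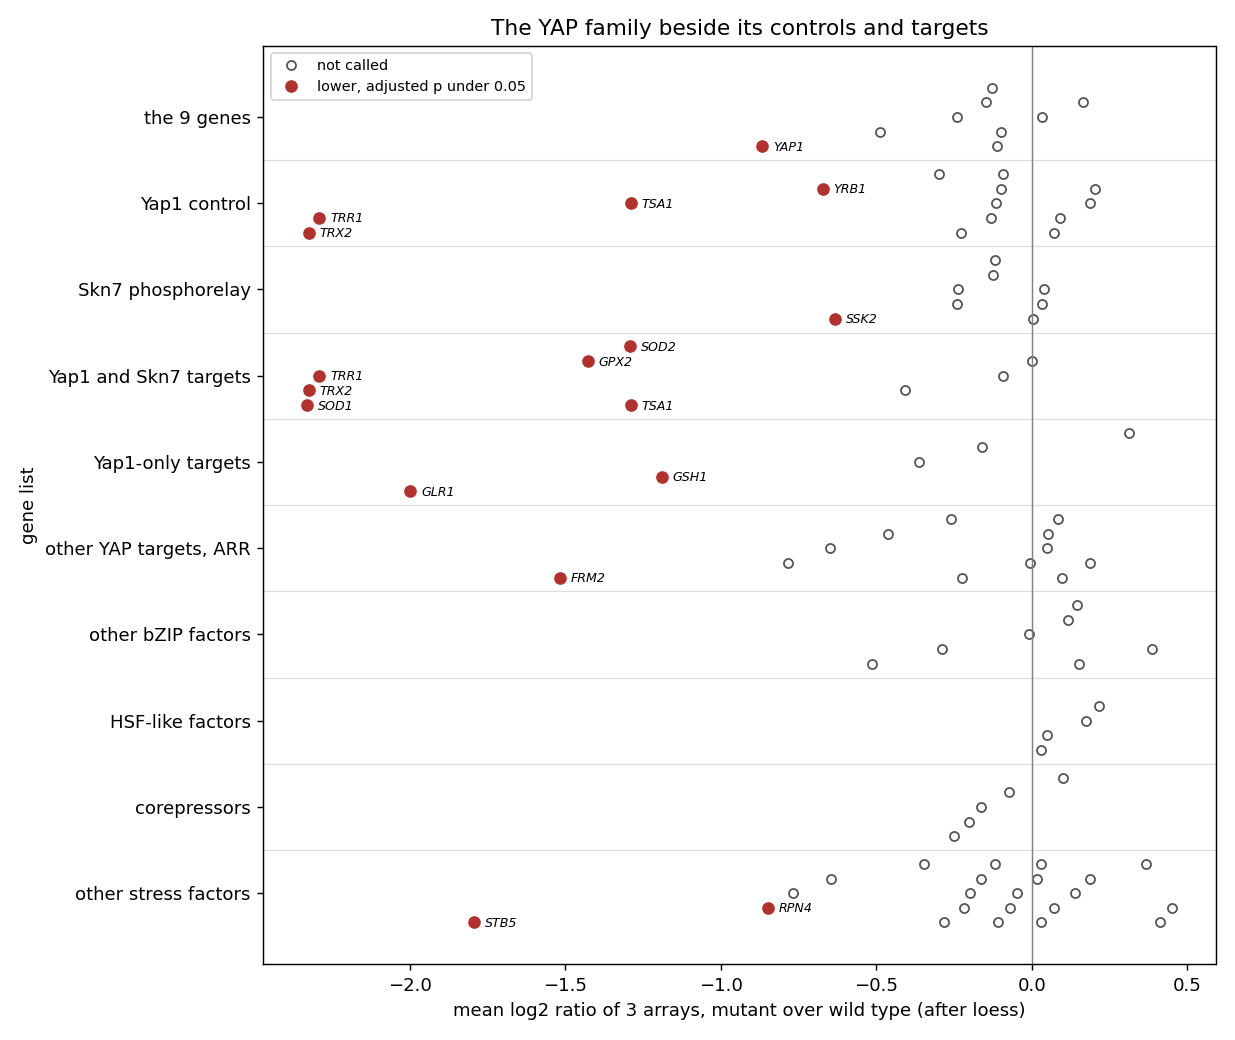
Mean log2 ratio of 3 arrays after loess (horizontal axis) for the 9 genes and for 9 lists of related genes (vertical axis), with filled red points for genes lower at an adjusted p under 0.05 by limma and open points for the rest. YAP1 at -0.87 is the one filled point among the 9, while TRX2, TRR1 and SOD1 lie at -2.29 or below.

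Other transcription factor genes were set beside the YAP family. Of 7 bZIP genes outside the family, 0 passed by limma, and at an unadjusted p under 0.05 CST6 (-0.51) was lower and ACA1 (0.39) was higher. With median centring ACA1 had -0.00, and 2 of the 7 were lower, HAC1 at -0.86 and CST6 at -0.66. HAC1, the factor of the unfolded protein response, had -0.29, and GCN4 and MET4, factors of amino acid and sulfur metabolism, had 0.14 and 0.15. Of the 5 corepressor genes 0 passed, also at an unadjusted p under 0.05 (limma): TUP1 had -0.25, NRG1 -0.20, MIG1 -0.16, NRG2 0.10 and CYC8 -0.07. With median centring TUP1 passed as lower (-0.59, adjusted p = 0.0041).

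In a list of 22 other stress factors 2 fell and 0 rose, with a median of -0.09. STB5, whose product activates pentose phosphate genes in oxidative stress, had -2.16, -1.60 and -1.63 on replicates 1, 2 and 3. Its mean of -1.79 (limma, adjusted p = 1.77e-04) lay below that of YAP1, with intervals of -2.14 to -1.45 and -1.28 to -0.46 that did not overlap. RPN4, the factor of proteasome genes, fell by 0.85 (adjusted p = 0.0145), but not without replicate 1 or with normexp background correction. YRR1, a multidrug resistance factor gene, had -0.77 (adjusted p = 0.0881), and AFT2, an iron regulator gene, had -0.64 (adjusted p = 0.140). YRR1 passed as lower with normexp (-1.52, adjusted p = 0.0130), where 2.89% of all genes were lower and 0.487% higher. With median centring 5 of the 22 were lower, STB5, RPN4, YRR1 (-0.77), AFT2 (-0.60) and PDR1 (-0.57), and MET31 (0.45) was higher. After loess PDR1 had 0.01, 0.17 and -1.22 on replicates 1, 2 and 3, so only replicate 3 was low.

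Of the genes on either side of YAP1 in the order of the RefSeq gene table, YML007C-A was not among the named spots. The other, GIS4, had 0.42, 0.11 and 0.17 on replicates 1, 2 and 3 and averaged 0.23 (limma, adjusted p = 0.397). The profile of YAP1 over the 3 arrays was compared with those of all genes by Euclidean distance. The nearest were MMT1 at a distance of 0.29, TRP2 (0.43), YCP4 (0.44), RIB3 (0.48) and GND1 (0.59). With 3 arrays such a profile holds little information, and the distance says that the ratios were alike and no more.

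**Figure D4:**
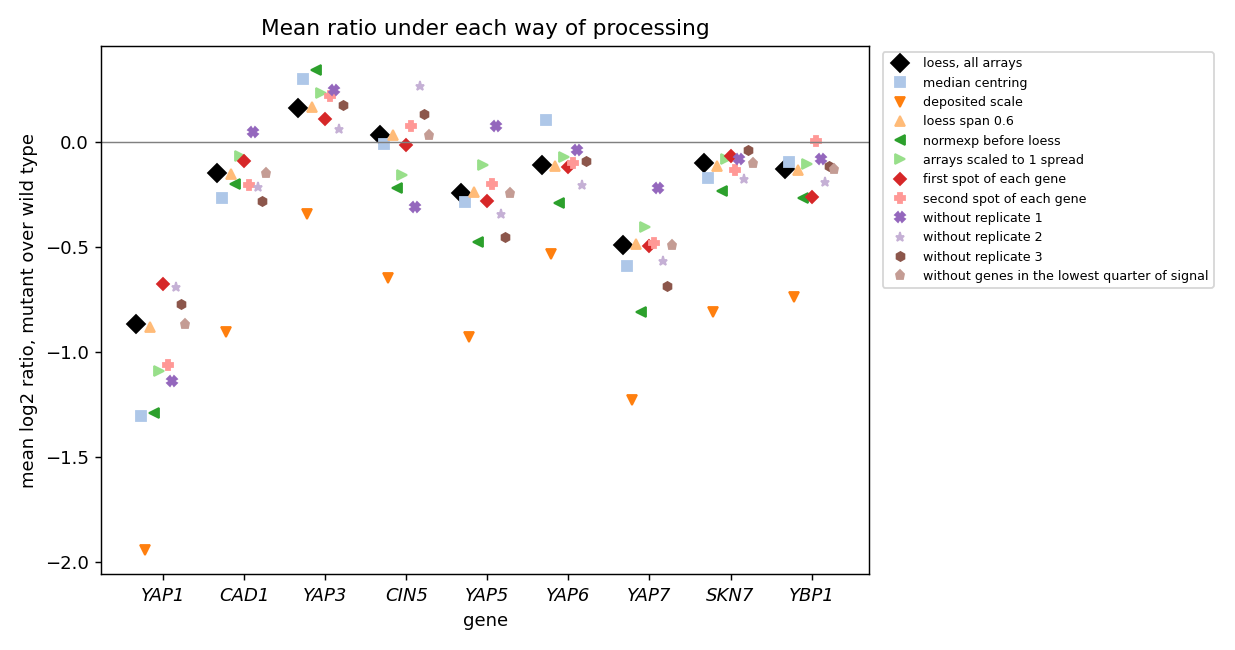
Mean log2 ratio of each of the 9 genes (vertical axis) with loess and all arrays (black diamond) and under 11 other settings. YAP1 ranges from -1.94 with the deposited ratios to -0.67 with the first spot alone, while CAD1, YAP3, CIN5, YAP5, YAP6 and YBP1 cross 0.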

How the data were processed

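Per the labels, 3 two-colour arrays each compared YAP1 mutant and wild-type RNA. The authors deposited 1 log2 ratio for each spot. What the authors did before deposit (scanner, background, normalization) is not given in the sources used here. All ratios were ratios of whole numbers below 65535 within a relative tolerance of 1e-13, so both signals were recovered up to a common factor, set by agreement of neighbouring duplicate spots. On simulated arrays the recovered log2 signal lay within 0.5 of the truth for 87.2%, 92.2% and 93.2% of spots. Those arrays were built from the recovered signals, so agreement of duplicate spots was put in. An error common to the recovered signals could not show there. Ratios were corrected by loess (span 0.3), spots of a gene were averaged, and means were tested against 0 with limma 3.58.1 (R 4.3.3), two-sided, over 5539 genes. By the platform annotation 11138 spots had 1 gene, 1918 none and 0 several, and 5534 genes matched RefSeq. On simulated arrays of 5539 genes limma found 28% of the 50 genes set to a 1.5-fold change and 74% of the 50 set to a 2-fold change, and it found 100% at 4-fold and at 8-fold, with 6 false calls among 157. In that simulation genes varied with a smaller SD than observed, the same on every array. The shares found may therefore be too high for the real arrays. The members, lists and loess step were chosen with earlier results of these data known. Named were the 9 genes, called genes and up to 4 of smallest p per list, the neighbours of YAP1 and the 5 nearest profiles; further list genes named beside the factor they belong to were chosen after their values were seen. Alternatives covered centring, loess span, normexp (offset 50), scaling, single spots, each array left out, unmoderated statistics, a signal filter and a threshold of 0.01. The number of arrays limits the precision. Python 3.11.15, numpy 2.4.6, pandas 2.3.3 and matplotlib 3.10.9 were used.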

Additional observations from a re-analysis of the deposited data

How the results depend on the processing

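All alternatives were chosen with earlier results of these data known. Genes lower and higher numbered 984 and 237 with median centring, 4191 and 1 with the deposited ratios, and 66 and 10 at an adjusted p under 0.01. With limma's fit left unmoderated both counts were 0, with 263 and 246 genes at an unadjusted p under 0.05. Leaving out 1 array gave 100 to 169 lower and 30, 56 and 28 higher genes without replicates 1, 2 and 3. All of the 9 genes tested had an SE of 0.241 without replicate 2, and of 0.237 without replicate 3. Those p-values rest on a spread shared across genes, unlike those without replicate 1, so the calls are not fully alike. Of the 9 genes, 2 were lower with median centring, 8 with the deposited ratios, and 0 with scaling, the first spot, the unmoderated statistic or the stricter threshold, and 0 to 1 with an array left out; 0 were higher in any. YAP1 ranged from -1.94 with the deposited ratios to -0.67 with the first spot, and since its sign helped to set the direction, that sign is no support. It missed the threshold with scaling (-1.09, adjusted p = 0.0817), the first spot (-0.67), the unmoderated statistic (-0.87, adjusted p = 0.551) and the stricter threshold, and ranged from -1.14 to -0.69 with an array left out. Signs turned for CIN5 with median centring (-0.0082), the deposited ratios (-0.65), normexp (-0.22), scaling (-0.16), the first spot (-0.013) and without replicate 1 (-0.31; 0.27 without replicate 2). They turned for YAP6 with median centring (0.11), YAP3 with the deposited ratios (-0.34), and YBP1 with the second spot (0.0034). Without replicate 1 they turned for CAD1 (0.048, down to -0.28 with another array left out) and YAP5 (0.074, down to -0.45). YAP3 and YAP6 fell out of the signal filter. The deposited scale moves the median of all genes itself; the cause of the other changes was not tested. No paired analysis was possible because each array is already a direct comparison and there is 1 group of arrays.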

Other observations

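Strain markers were read beside the 9 genes. Of 7 auxotrophic marker genes 0 were called by limma, with 2 lower at an unadjusted p under 0.05: MET17 (-0.43) and ADE2 (-0.39). The others lay between -0.13 (HIS3) and 0.01 (LYS2). With median centring MET17 passed as lower (-1.03). Of 6 genes expressed in cells of mating type a, 0 were called, with AGA2 (-0.51) lower and MFA2 (0.52) higher at an unadjusted p under 0.05. With median centring both passed, AGA2 as lower (-0.60) and MFA2 as higher (0.47).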
